A study of Mus musculus with 6 samples.

Results

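The 42 genes described here encode the contractile machinery, calcium handling and fuel metabolism of striated muscle, and all 42 were found by symbol among the 18238 genes of the deposited count table. They were chosen because they stood highest in 1 library, artemisinin replicate 2, so their levels in that library are given as a description with no test. The RNA-seq data cover 6 mice with lung cancer, 3 treated with artemisinin (labelled GF1 to GF3, artemisinin replicates 1 to 3) and 3 left as the model (MF1 to MF3, model replicates 1 to 3). The drug is a plant compound from sweet wormwood and is known as an antimalarial. Both groups carried lung cancer, and the sources used here do not give strain, age, dose, duration, the dissected tissue or how tumours were produced. All libraries had high levels of the alveolar surfactant gene Sftpc (3901 to 41435 FPKM) and the airway club cell gene Scgb1a1 (14510 to 150990 FPKM). FPKM, the deposited unit for levels, is the count scaled by gene length and by the library's total. The design text speaks of separate mice and the labels give no litter, cage or batch, so p-values measure the spread between these libraries, part of which may be technical.

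In skeletal muscle, a nerve impulse excites the cell membrane. The calcium channel Cacna1s in that membrane acts as voltage sensor and is coupled to the release channel Ryr1 of the sarcoplasmic reticulum. The released calcium binds troponin C on the thin filament of actin, and myosin then pulls the thin filaments towards the centre of the sarcomere, the repeating unit that is anchored at its ends by the Z discs. Fast and slow fibres build this apparatus from different isoforms of myosin, troponin and the calcium store proteins, and perinatal fibres use a further myosin. Heart muscle shares part of the set, and in the mouse heart-type muscle also lines the pulmonary veins within the lung.

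The skeletal muscle genes took 1.29% of all counts in artemisinin replicate 2, against 0.0680% in artemisinin replicate 1, 0.0250% in artemisinin replicate 3 and 0.00908% to 0.0123% in the 3 model libraries. All 42 were detected in artemisinin replicate 2, and 40 of the 42 had their highest level there. The level was at least 20-fold above the highest of the other 5 libraries for 22 members and at least 100-fold above it for 13, with 3 counts as the lowest value allowed for the comparator. Among all 18238 genes, 172 genes (0.943%) stood at least 20-fold higher in that library. The exceptions were Tnnc1, the slow and cardiac troponin C gene, which was below artemisinin replicates 1 and 3 there, and Tmod4, a tropomodulin that caps thin filaments, which was second highest. In 36 of the 42 genes the highest of the other 5 libraries was artemisinin replicate 1. That number includes 3 genes, Myh4, Mybpc1 and Pvalb, with 0 counts in all 5, where the libraries tied. In a bulk sample more muscle cells and more RNA per muscle cell cannot be told apart.

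**Figure D1:**
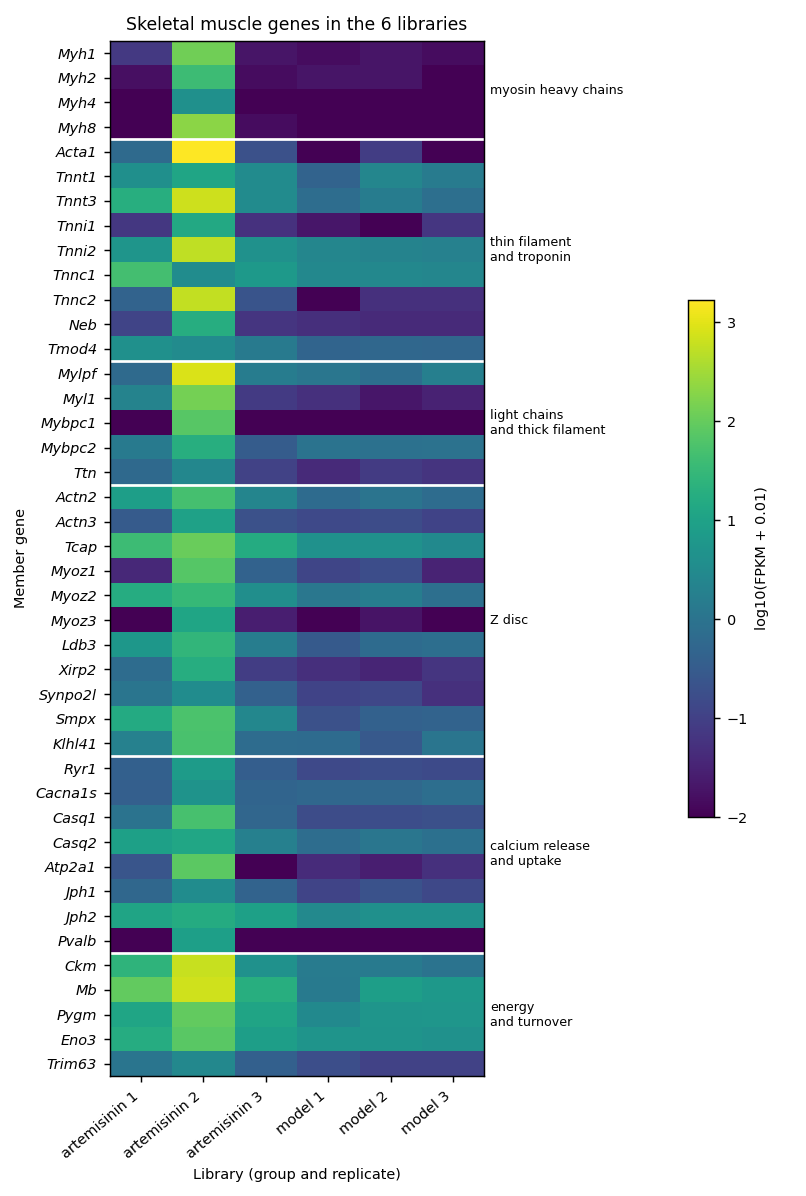
Heat map of the 42 skeletal muscle genes (rows, grouped by role) in the 6 libraries (columns), coloured by log10(FPKM + 0.01). Artemisinin replicate 2 is the brightest column for 40 of 42 genes, and Tnnc1 is brighter in artemisinin replicate 1.

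The 4 skeletal myosin heavy chain genes among the members had at most 10 counts in any library other than artemisinin replicate 2. Myh8, the perinatal myosin heavy chain gene (chromosome 11, 67277124 to 67308634, GRCm38), had 0, 42431 and 1 counts in artemisinin replicates 1, 2 and 3 and 0 in each model library. Myh1, the fast 2X myosin gene, had 10, 24009 and 2 counts in the artemisinin libraries and 1, 2 and 1 in the model libraries. Myh2, the fast 2A myosin gene, had 1, 7488 and 1 counts in the artemisinin libraries and 2, 2 and 0 in the model libraries. For Myh8, Myh1 and Myh2 alike, artemisinin replicate 2 stood alone and the other artemisinin libraries lay among the model libraries or within 10 counts of them. Myh4, the fast 2B myosin of the most glycolytic fibres, had 820 counts there and 0 in all 5 others, at least 1358-fold more against a floor of 3 counts over those 5 libraries. For Myh8 the rate was 210748 times that of the other libraries pooled, which held 1 count (exact 95% limits 37823 and 8324280, counting error alone).

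Per length, Myh8 was the leading heavy chain in artemisinin replicate 2 at 212 FPKM, followed by Myh1 at 124, Myh2 at 38.3 and Myh4 at 4.23 FPKM. Myh8 made up 56.0% of the summed FPKM of these 4 genes, Myh1 32.7%, Myh2 10.1% and Myh4 1.12%. Myh3, the embryonic heavy chain gene, stood at 0.637 FPKM in the same library (124 counts, against 0 to 16 in the others). The 4 genes lie side by side on chromosome 11, in the order Myh2 (67171027 to 67197517), Myh1 (67200102 to 67224577), Myh4 (67237812 to 67260447) and Myh8. Their transcripts are similar: of the 50-base stretches in the longest GENCODE transcript, 26.7% for Myh1, 26.9% for Myh2, 18.9% for Myh4 and 21.4% for Myh8 also occur in another myosin heavy chain transcript. Reads from such stretches may have been split or dropped in the counting, so the levels of Myh8, Myh1, Myh2 and Myh4 relative to each other are uncertain. In the same search 0 stretches were shared among the troponin, calsequestrin or muscle actin genes.

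Acta1, the skeletal alpha-actin gene of the thin filament, was the member with the highest FPKM in artemisinin replicate 2 and the 11th gene of the whole library by count. It stood at 0.622, 1684 and 0.192 FPKM in artemisinin replicates 1, 2 and 3 and at 0, 0.0772 and 0 FPKM in model replicates 1, 2 and 3. The level in artemisinin replicate 2 was 2706-fold above that in artemisinin replicate 1, the next highest. Neb, the giant nebulin ruler of the thin filament, stood at 17.8 FPKM there and at 0.0319 to 0.106 FPKM in the other 5 libraries. Tmod4 stood at 4.13, 3.28 and 1.45 FPKM in the artemisinin libraries and 0.479, 0.536 and 0.524 FPKM in the model libraries. Its groups did not overlap, with artemisinin higher, as for 16.3% of all genes tested, and artemisinin replicate 2 did not stand apart.

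The fast troponin genes were high in artemisinin replicate 2, and their slow partners differed among themselves. Tnnt3, which encodes the fast tropomyosin-binding subunit, stood at 18.9, 687 and 3.28 FPKM in artemisinin replicates 1, 2 and 3 and at 0.739, 1.53 and 0.802 FPKM in the model libraries. Tnni2, the fast inhibitory subunit, stood at 5.40, 540 and 4.34 FPKM in the artemisinin libraries and 2.54, 2.14 and 1.96 FPKM in the model libraries. Tnnc2, the fast calcium-binding subunit, stood at 0.452, 563 and 0.218 FPKM in the artemisinin libraries and 0, 0.0438 and 0.0436 FPKM in the model libraries. All 3 fast subunits thus had similar levels, 540 to 687 FPKM, in artemisinin replicate 2, and Tnnt3 alone of the 3 exceeded 10 FPKM in another library. The slow subunit Tnnt1 stood at 4.06, 11.9 and 3.34 FPKM in the artemisinin libraries and 0.447, 2.50 and 1.47 FPKM in the model libraries. The slow inhibitory subunit Tnni1 had 4, 1230 and 4 counts in the artemisinin libraries and 1, 0 and 5 in the model libraries. Artemisinin replicate 2 was highest for both, and Tnni1 had at most 5 counts elsewhere. Tnnc1 followed a different order, at 45.5, 3.46 and 6.62 FPKM in the artemisinin libraries and 2.75, 2.78 and 2.52 FPKM in the model libraries. Artemisinin replicate 1 was highest for Tnnc1, and artemisinin replicate 2 lay close to the model libraries.

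Promoter sequences are shown for the actin gene with the highest level, the leading myosin, a myosin-binding protein with no count outside artemisinin replicate 2, and the troponin C pair that went separate ways. Each runs from 250 bases before to 50 bases after the start site, read 5′ to 3′ on the gene's strand from RefSeq annotation of GRCm38.p6, and capitals mark E-boxes (CANNTG, the site class bound by MyoD family factors), MEF2 boxes and CArG boxes found on either strand. The Acta1 promoter (chr8:123894726-123895025, minus strand) held 2 E-boxes and 1 CArG box, the site class bound by serum response factor. The Myh8 promoter (chr11:67276874-67277173, plus strand) held 2 E-boxes and 1 MEF2 box. The Mybpc1 (chr10:88605103-88605402, minus strand), Tnnc2 (chr2:164779685-164779984, minus strand) and Tnnc1 (chr14:31208062-31208361, plus strand) promoters held 3, 2 and 2 E-boxes and no MEF2 or CArG box. The troponin C pair thus did not differ in the number of these marked matches. The MCAT motif CATTCC, not marked, was found 1 time in the Tnnc1 promoter and 0 times in that of Tnnc2.
Acta1: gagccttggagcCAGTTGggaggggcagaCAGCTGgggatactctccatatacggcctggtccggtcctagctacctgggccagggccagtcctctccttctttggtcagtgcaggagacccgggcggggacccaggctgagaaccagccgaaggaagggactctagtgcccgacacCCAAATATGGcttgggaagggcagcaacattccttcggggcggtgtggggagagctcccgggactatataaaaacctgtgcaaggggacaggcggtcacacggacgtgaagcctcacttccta
Myh8: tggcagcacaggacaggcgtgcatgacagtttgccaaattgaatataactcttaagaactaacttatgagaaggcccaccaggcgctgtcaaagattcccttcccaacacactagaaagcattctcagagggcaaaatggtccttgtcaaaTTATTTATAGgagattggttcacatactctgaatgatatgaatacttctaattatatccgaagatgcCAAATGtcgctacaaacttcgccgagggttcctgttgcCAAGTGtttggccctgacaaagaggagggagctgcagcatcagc
Mybpc1: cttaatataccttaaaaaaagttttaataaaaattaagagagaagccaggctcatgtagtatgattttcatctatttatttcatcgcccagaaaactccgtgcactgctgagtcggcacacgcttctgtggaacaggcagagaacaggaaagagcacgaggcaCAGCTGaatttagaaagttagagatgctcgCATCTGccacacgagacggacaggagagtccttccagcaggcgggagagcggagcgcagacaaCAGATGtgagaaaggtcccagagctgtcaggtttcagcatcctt
Tnnc2: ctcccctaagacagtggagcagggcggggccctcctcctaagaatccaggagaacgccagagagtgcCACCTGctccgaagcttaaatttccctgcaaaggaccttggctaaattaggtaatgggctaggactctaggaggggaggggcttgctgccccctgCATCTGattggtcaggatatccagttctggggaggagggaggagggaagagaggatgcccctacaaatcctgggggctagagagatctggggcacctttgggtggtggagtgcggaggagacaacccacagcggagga
Tnnc1: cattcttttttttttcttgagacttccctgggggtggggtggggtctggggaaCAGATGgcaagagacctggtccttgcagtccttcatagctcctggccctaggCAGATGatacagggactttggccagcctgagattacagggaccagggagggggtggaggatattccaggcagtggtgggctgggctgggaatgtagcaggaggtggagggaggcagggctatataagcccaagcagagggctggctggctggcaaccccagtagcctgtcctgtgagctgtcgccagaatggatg

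Promoters were available for 34 of the 42 genes. MEF2 boxes were found in 10 of the 34 (29.4%), against 3.26% of 27025 promoters of the same length, and the 10 were those of Xirp2, Klhl41, Ttn, Casq2, Myoz2, Myh1, Myh4, Myh8, Synpo2l and Pvalb. CArG boxes were found in those of Acta1, Myh4 and Ldb3 (8.82%, against 1.57% of all promoters). E-boxes were found in 28 (82.4%, against 72.1%) and the MCAT motif CATTCC in 10 (29.4%, against 14.6%). A match is a string of letters in the window and not a bound site, and these shares were not tested.

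Among the other thick filament genes, Mybpc1 and the regulatory light chain Mylpf stood far above the remaining libraries. Mybpc1, the slow-type myosin-binding protein C gene (chromosome 10, 88518279 to 88605229), had 10026 counts in artemisinin replicate 2 and 0 in the other 5, at least 16599-fold more against a floor of 3 counts over those libraries. Its fast paralog Mybpc2 stood at 1.37, 19.1 and 0.325 FPKM in artemisinin replicates 1, 2 and 3 and at 0.969, 0.879 and 0.909 FPKM in the model libraries, so the model libraries were not at 0. Mylpf, the fast regulatory light chain, stood at 0.629, 837 and 1.53 FPKM in the artemisinin libraries and 1.10, 0.751 and 1.76 FPKM in the model libraries. Outside artemisinin replicate 2 the Mylpf groups overlapped. Myl1, the fast essential light chain, stood at 2.18, 138 and 0.0668 FPKM in the artemisinin libraries and at most 0.0424 FPKM in the model libraries. Ttn, the giant spring that spans the sarcomere, reached 2.62 FPKM in artemisinin replicate 2, and 0.596 FPKM in artemisinin replicate 1 against at most 0.0974 FPKM in the other 4 libraries.

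The 11 genes of the Z disc and its partners differed in how far artemisinin replicate 2 stood apart from artemisinin replicate 1. Myoz1, which encodes the fast-fibre calsarcin that ties calcineurin to the Z disc, stood at 0.0302, 72.1 and 0.420 FPKM in artemisinin replicates 1, 2 and 3 and at 0.111, 0.164 and 0.0234 FPKM in the model libraries. Myoz3, a further calsarcin of fast fibres, had 1265 counts in artemisinin replicate 2 and at most 2 in any other. Myoz2, the calsarcin of slow and heart muscle, stood at 17.4, 32.3 and 3.80 FPKM in the artemisinin libraries and 1.15, 1.61 and 0.792 FPKM in the model libraries. Thus artemisinin replicate 1 was near the bottom for Myoz1 and second for Myoz2. Tcap, the telethonin gene that caps titin, stood at 37.7, 110 and 16.75 FPKM in the artemisinin libraries and 4.49, 4.45 and 2.998 FPKM in the model libraries. Smpx, a small muscle protein on chromosome X, stood at 15.3, 56.1 and 2.58 FPKM in the artemisinin libraries and 0.191, 0.403 and 0.459 FPKM in the model libraries. The alpha-actinin genes crosslink actin at the Z disc, and Actn2 stood at 8.66, 48.8 and 2.37 FPKM in the artemisinin libraries and 0.671, 1.04 and 0.705 FPKM in the model libraries. The fast-fibre Actn3 was 31.9-fold above the highest other library, against 5.63-fold for Actn2. Xirp2 and Klhl41 were 25.8-fold and 26.0-fold above it, and Ldb3 and Synpo2l 4.64-fold and 3.17-fold.

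Calcium genes also differed in how far artemisinin replicate 2 stood apart. Atp2a1, the fast calcium pump SERCA1 (chromosome 7, 126445858 to 126463103), stood at 0.227, 81.1 and 0 FPKM in artemisinin replicates 1, 2 and 3 and at 0.0335, 0.0176 and 0.0439 FPKM in the model libraries. Atp2a2, the pump gene of slow, heart and most other cells, was at 60.4 FPKM in artemisinin replicate 2 and 55.6 to 78.8 FPKM in the others. Casq1, the fast calcium store protein, stood at 0.981, 51.2 and 0.532 FPKM in the artemisinin libraries and 0.154, 0.162 and 0.177 FPKM in the model libraries. Casq2, its slow and cardiac counterpart, stood at 9.36, 12.5 and 1.86 FPKM in the artemisinin libraries and 0.718, 1.10 and 0.825 FPKM in the model libraries. For Casq2 artemisinin replicate 2 exceeded artemisinin replicate 1 by 1.34-fold, against 52.2-fold for Casq1. Jph2, a junctophilin that holds membrane and calcium store together, stood at 11.01, 16.1 and 9.29 FPKM in the artemisinin libraries and 2.815, 4.14 and 4.29 FPKM in the model libraries. All 3 artemisinin libraries lay above all 3 model libraries for Jph2, as for 16.3% of all genes tested. Jph1 was 6.51-fold above the highest other library, the release channel Ryr1 18.7-fold and the voltage sensor Cacna1s 6.47-fold. Pvalb, the calcium buffer parvalbumin of fast fibres, had 300 counts in artemisinin replicate 2 and 0 in all others, at least 497-fold more against the floor.

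Fuel genes were abundant in artemisinin replicate 2 and measurable everywhere. Mb, the oxygen store myoglobin, stood at 93.5, 704 and 18.7 FPKM in artemisinin replicates 1, 2 and 3 and at 1.40, 8.40 and 5.98 FPKM in the model libraries. Ckm, the muscle creatine kinase, stood at 24.9, 626 and 4.31 FPKM in the artemisinin libraries and 1.46, 1.415 and 0.983 FPKM in the model libraries. Pygm, the muscle glycogen phosphorylase, stood at 11.9, 95.1 and 11.4 FPKM in the artemisinin libraries and 3.02, 5.22 and 5.615 FPKM in the model libraries. In each of Mb, Ckm and Pygm the 3 artemisinin values lay above the 3 model values, as they did for 16.3% of all genes tested. Eno3, the muscle enolase, stood at 17.6, 78.9 and 8.66 FPKM in the artemisinin libraries and 4.99, 4.99 and 4.49 FPKM in the model libraries. Trim63, a ubiquitin ligase of muscle atrophy, was 2.61-fold above the highest other library. For Eno3 and Trim63 too, the artemisinin values lay above the model values.

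Fast and slow isoforms were then set side by side in artemisinin replicate 2, where 6 of 9 fast genes had a higher FPKM than their slow partner. The heavy chain pair among the 9 sets Myh4, the lowest of the 3 fast heavy chains, against Myh7, and Myh1 (124 FPKM) and Myh2 (38.3 FPKM) both stood above Myh7 (11.8 FPKM), so the tally depends on that choice. All 14 fast members, and 6 of 7 slow or developmental members, had their highest level in this library. Tnnc2 exceeded Tnnc1 by 163-fold, Tnnt3 exceeded Tnnt1 by 57.9-fold and Tnni2 exceeded Tnni1 by 37.4-fold per length. Casq1 and Myoz1 exceeded their partners by 4.09-fold and 2.23-fold. Mylpf had 21725 counts there, while Myl2, the slow and ventricular regulatory light chain, had 5, 4 and 0 counts in the artemisinin libraries and 0, 1 and 0 in the model libraries. The myosin-binding proteins went the other way, with slow Mybpc1 at 3.91-fold the FPKM of fast Mybpc2. Myh4 stood below both Myh7, the slow and cardiac heavy chain (2.79-fold higher than Myh4), and Myh8 (50.1-fold higher). Myl3, the slow essential light chain, stood at 5.42, 388 and 0.432 FPKM in the artemisinin libraries and 0.918, 1.13 and 1.30 FPKM in the model libraries. In artemisinin replicate 2 it was 2.80-fold above Myl1, but by counts, and by counts per longest GENCODE transcript, Myl1 was the higher at 1.07-fold and 1.11-fold, so the order of this pair depends on the gene length used.

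**Figure D2:**
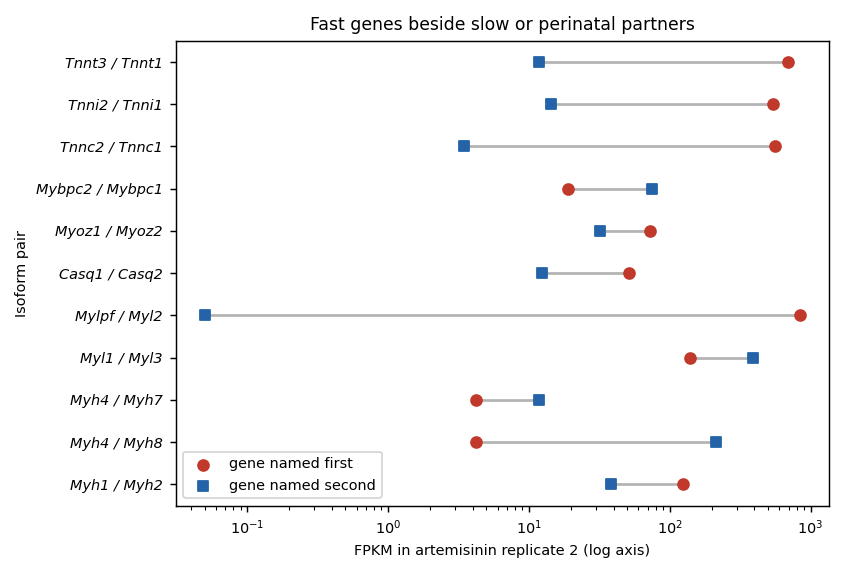
FPKM of both genes of each isoform pair in artemisinin replicate 2 (log axis), with circles for the gene named first and squares for the gene named second. The troponin pairs are 37.4-fold to 163-fold apart in favour of the fast gene, while Mybpc1, Myl3, Myh7 and Myh8 stand to the right of their fast partners.

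Of the same pairs, some kept the balance of artemisinin replicate 2 in the other libraries and some did not. By counts, Tnni2 made up 91.1% of its pair with Tnni1 in artemisinin replicate 2 and 90.4% to 100% in the others, and Mylpf made up 72.2% to 100% of its pair with Myl2 over all 6 libraries. Mybpc2 made up 18.1% of its pair in artemisinin replicate 2 and 100% in the others, where Mybpc1 had no count. Myoz1 made up 67.8% of its pair with Myoz2 in artemisinin replicate 2 and 0.164% to 9.42% in the others. The troponin I pair thus leaned to the fast gene in every library. For the regulatory light chain pair this was unclear in artemisinin replicate 1, with 13 and 5 counts (exact 95% interval 46.5% to 90.3%). The myosin-binding pair leaned to the slow gene only in artemisinin replicate 2. By the same measure, Tnnc2 made up 99.4% of the pair with Tnnc1 in artemisinin replicate 2 (exact Clopper-Pearson 95% interval 99.2% to 99.5%) and 0.946% in artemisinin replicate 1 (0.409% to 1.85%). Casq1 made up 74.9% of the pair with Casq2 in artemisinin replicate 2 (73.6% to 76.3%) and 7.11% in artemisinin replicate 1 (5.27% to 9.34%). Tnnt3 made up 98.5% of its pair in artemisinin replicate 2, 84.1% in artemisinin replicate 1 (81.1% to 86.7%) and 38.3% to 65.2% in the other 4. Troponin C, calsequestrin and the calsarcins Myoz1 and Myoz2 thus leaned to the slow or cardiac gene outside artemisinin replicate 2, and troponin T did not in artemisinin replicate 1. These intervals cover counting error only. Myh7, which is no member, was higher in the model, at 45.6, 31.3 and 40.03 FPKM, than with artemisinin, at 11.3, 11.8 and 6.79 FPKM. It fell 4.19-fold (log2 −2.07 ± 0.27, SE; edgeR adjusted p = 0.0164 over all genes), and artemisinin replicate 2 lay among the other artemisinin libraries.

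Artemisinin replicates 1 and 3 were compared with the model, leaving out the library in which the genes were chosen as highest, with all 15427 genes that passed the expression filter. Of the 42 members 29 were tested, and 13 of them rose (edgeR quasi-likelihood test, Benjamini-Hochberg threshold 0.05), where 4.34% of all genes rose. None of the 29 fell by edgeR, where 4.62% of all genes fell, and 0 fell at an unadjusted p under 0.05 or in DESeq2. In the other direction 1 member, Cacna1s, did not overlap, against 25.1% of all genes tested. The groups did not overlap for 25 of the 29 with artemisinin higher, against 25.8% of all genes tested. The median log2 fold change of the 29 was 2.30, against 0.02 for all genes tested. Of the 14 members listed as also expressed in heart muscle 9 rose. Of the 15 tested members outside that list 4 rose, which were Tnnt3, Tmod4, Eno3 and Pygm. The list may not hold every member that heart muscle expresses, and the difference between these counts was not tested. By role, 3 of 6 thin filament, 0 of 3 thick filament (1 at an unadjusted p under 0.05, 1 in DESeq2), 6 of 9 Z disc, 1 of 6 calcium and 3 of 5 fuel and turnover genes rose. Among the 6 fast-fibre members tested 1, Tnnt3, rose by edgeR, against 2 in DESeq2 and 3 at an unadjusted p under 0.05. The heavy chains, Acta1, Mybpc1, Atp2a1 and 6 further members had too few counts here to be tested.

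The 8 members with the smallest p-values were Tcap, Jph2, Smpx, Ckm, Actn2, Tmod4, Myoz2 and Eno3, which belong to the Z disc, the calcium store junction, the thin filament and fuel supply. Tcap rose from 3.92 ± 0.832 normalised CPM (SD, n = 3) to 24.4 ± 13.2 (SD, n = 2), which is 2.64 ± 0.39 (SE) on the log2 scale with an edgeR adjusted p = 0.0160. Jph2 rose from 18.5 ± 3.83 to 45.7 ± 5.29 normalised CPM, 2.47-fold (edgeR adjusted p = 0.0212). Smpx rose 23.0-fold (edgeR adjusted p = 0.0262), from 0.383 ± 0.152 normalised CPM to values of 8.90 ± 8.95. The 2 artemisinin libraries lay far apart for Smpx and close together for Jph2 and Pygm (31.6 ± 0.939 normalised CPM, SD). They also lay far apart for Ckm, Tnnt3 and Tnnc1, at 19.5 ± 19.4, 12.2 ± 12.1 and 17.7 ± 18.7. Actn2, Myoz2 and Ldb3 stood at 15.4 ± 12.4, 13.7 ± 12.4 and 21.0 ± 16.8. Relative to the mean, the SD of the other called genes lay between these. Ckm, Actn2, Tmod4, Myoz2 and Eno3 rose 10.3-fold, 6.24-fold, 4.93-fold, 8.11-fold and 2.47-fold, and the remaining called genes were Tnnt3, Synpo2l, Pygm, Tnnc1 and Ldb3, by 2.30-fold to 9.83-fold. Casq2, Mb and Ttn had log2 fold changes of 2.53 ± 0.63, 3.29 ± 0.83 and 2.61 ± 0.70 (SE) and missed the threshold (edgeR adjusted p = 0.0565, 0.0583 and 0.0658). Mylpf, Mybpc2 and Cacna1s had log2 fold changes of −0.28 ± 0.70, −0.26 ± 0.61 and −0.70 ± 0.37 (SE; edgeR adjusted p = 0.807, 0.796 and 0.251). Without artemisinin replicate 1 the count of members called higher fell from 13 to 2, Tcap and Eno3, and without model replicates 1, 2 or 3 it was 0, 1 and 0. Leaving out artemisinin replicate 3 gave 19.

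**Figure D3:**
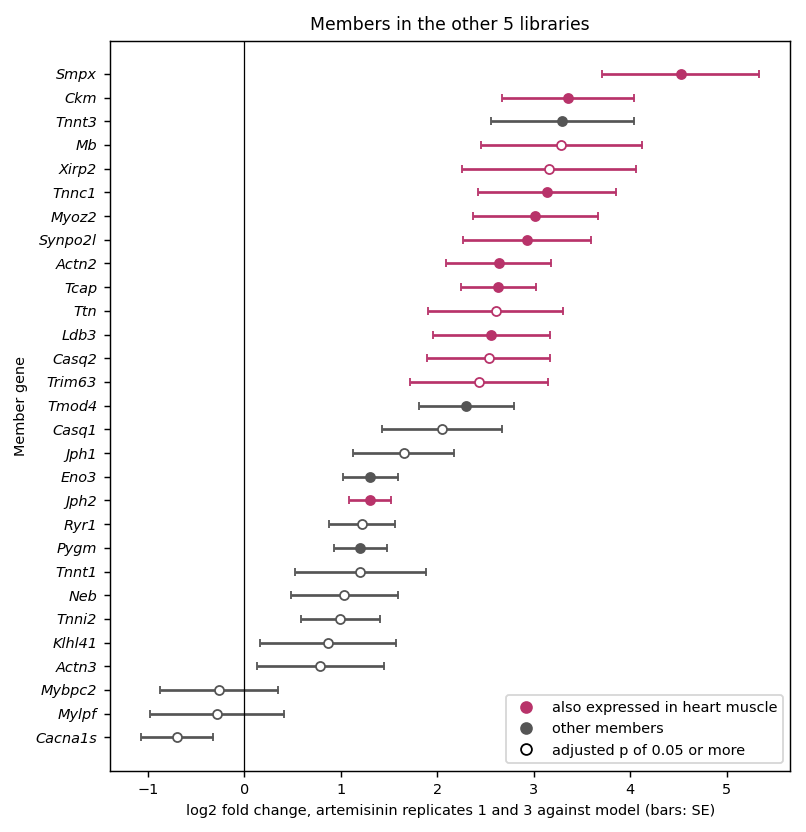
log2 fold change (points) with its standard error (bars) for the 29 members tested in artemisinin replicates 1 and 3 against the 3 model libraries, filled where the edgeR adjusted p was under 0.05. The 14 genes listed as also expressed in heart muscle all lie above 1.2, from Jph2 at 1.30 to Smpx at 4.52, and Mylpf, Mybpc2 and Cacna1s lie below 0.

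With artemisinin replicate 2 included, 7 of the 29 members that passed the filter were called higher among 15242 genes, where 2.17% were called higher over all, and nothing is read from this because the choice of genes used that library. They were Tmod4, Tcap, Myoz2, Synpo2l, Smpx, Casq2 and Jph2. The 3 artemisinin values lay above the 3 model values in 25 of the 29, against 16.3% of all genes. The 13 members that did not pass, with Acta1 and all 4 heavy chains among them, were too low in the other 5 libraries. The number called was 0 without artemisinin replicate 1 or any 1 model replicate, and 13 and 14 without artemisinin replicates 2 and 3.

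Marker lists of other cells moved with these results, and their part in them was not tested. Stratified squamous epithelium, the keratinised lining of skin and upper gut, had 14 of 15 markers highest in artemisinin replicate 2. Its summed level was 3880 CPM there, 15.0 and 25.5 CPM in the other artemisinin libraries and 11.3 to 21.2 CPM in the model libraries. Krt13 and Krt4, keratins of non-cornifying and oesophageal-type epithelium, had 46307 and 36394 counts there and at most 7 and 41 elsewhere. Of the 20 genes with the highest CPM among those at least 20-fold above the other libraries, 13 were members, and the others were Krt13, Krt4, Serpinb3c, Krtdap, Rptn, Lgals7 and Myl3. Fat cell markers, by contrast, were highest in artemisinin replicate 1 for 10 of 10, with a sum of 733 CPM, and at 87.5 CPM in artemisinin replicate 2.

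Heart muscle markers were highest in another library than the skeletal muscle genes. Of 15 heart markers 13 were highest in artemisinin replicate 1, with a summed level of 1544 CPM, against 383 and 466 CPM in artemisinin replicates 2 and 3 and 171 to 240 CPM in the model libraries. In artemisinin replicate 2 the cardiac factor genes Nkx2-5 and Tbx20 had 0 counts, and Nkx2-5 had 0 in artemisinin replicate 3 too. Of the 15 heart markers 6 had their lowest level of all libraries in artemisinin replicate 2, where Nkx2-5 tied with artemisinin replicate 3. The 1 marker highest there was Sbk2, at 40.8 normalised CPM against 1.15 to 1.73 in the others. Myl7, the atrial light chain, stood at 174, 7.18 and 46.9 FPKM in artemisinin replicates 1, 2 and 3 and at 10.2 to 12.5 FPKM in the model libraries. Of 14 heart markers tested without artemisinin replicate 2, 8 rose, Tnnt2 7.81-fold (edgeR adjusted p = 0.0150) and Myl7 8.75-fold (0.0194) among them. In the same fit 4.34% of all genes tested rose. Tnnc1, at 838 counts in artemisinin replicate 1, 158 in artemisinin replicate 3 and 80 in artemisinin replicate 2, had artemisinin replicates 1 and 3 first and second, as did Myl7. The 14 members listed as shared with heart muscle had a sum of 2846 CPM in artemisinin replicate 2 and 472 CPM in artemisinin replicate 1. Members were chosen as highest in artemisinin replicate 2, so nothing is read from the order of these sums. Smooth muscle markers were higher in all 3 artemisinin libraries (sums of 1168 to 1965 CPM, against 286 to 448 CPM), and 8 of 9 rose without artemisinin replicate 2.

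**Figure D4:**
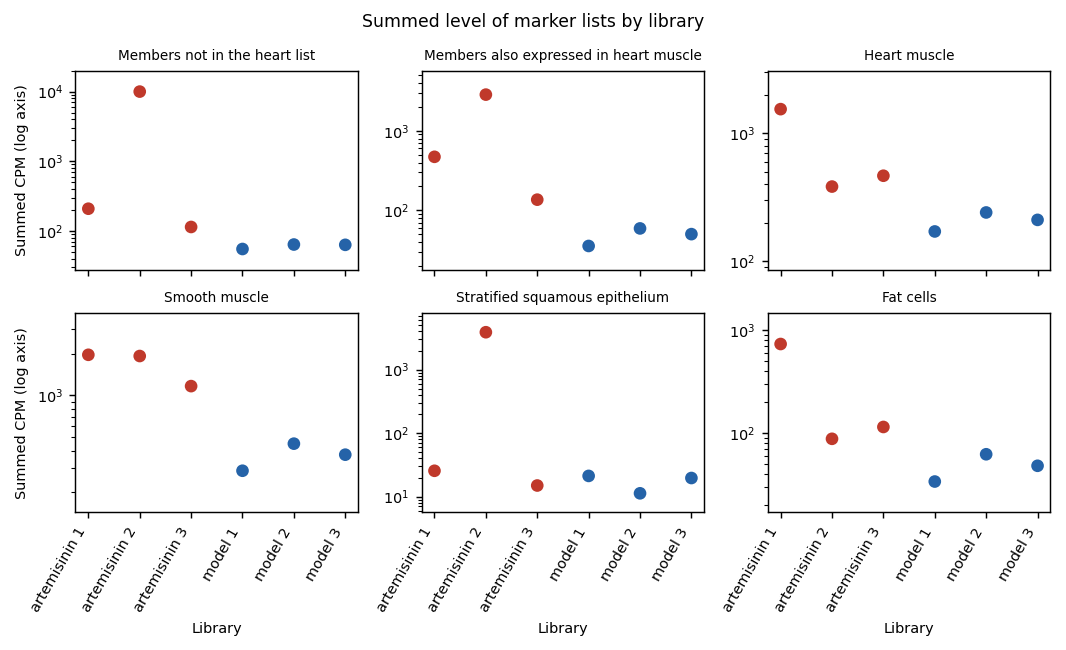
Summed CPM (log axis) of 6 gene lists in each library, with red points for artemisinin and blue points for the model. Members outside the heart list and squamous markers peak in artemisinin replicate 2, at 10019 and 3880 CPM, while heart and fat cell markers peak in artemisinin replicate 1, at 1544 and 733 CPM.

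Other genes of the muscle programme came from lists by function. Myogenic regulators were detected at low counts in artemisinin replicate 2: Myf6, the regulator most abundant in mature fibres, had 389 counts, Myog 168, Myod1 74, Myf5 35 and the satellite cell gene Pax7 32, against at most 9 in any other library for each. Tbx1, which also acts outside muscle, was not limited to that library, at 1.95 to 11.05 FPKM over the 6, nor was Mef2a, at 17.1 to 29.7 FPKM. Of the synaptic receptor genes, Chrna1, Chrnd and the kinase gene Musk had 206, 71 and 225 counts there, and Chrng, the fetal receptor subunit, had 4, while Chrnb1 stood at 7.23 to 16.2 FPKM in all 6 libraries. Without artemisinin replicate 2, the tests of these genes gave 0 calls among 6 myogenic and 3 synaptic genes in edgeR (3 and 2 at an unadjusted p under 0.05, 2 and 1 in DESeq2).

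Among the 21 further sarcomere isoforms tested without artemisinin replicate 2, 7 rose and 2 fell. Of all genes tested in that fit, 4.34% rose and 4.62% fell. Those that rose were Tnnt2, Tnni3, Mybpc3, Myl4 and Actc1, which are genes of heart or fetal muscle, with Tpm2 and Myom1, and those that fell were Myh7 and Myh13. Among 17 calcium and membrane genes 3 rose, Sln and Trdn among them, and among 13 fuel genes 3 rose, Pgam2, Slc2a4 and Cox8b, and Gys1 fell. Sln, which encodes the pump regulator sarcolipin, stood at 75.7, 117 and 14.3 FPKM in artemisinin replicates 1, 2 and 3 and at 4.32, 6.77 and 4.36 FPKM in the model libraries. Myot, a Z disc gene outside the members, had 3207 counts in artemisinin replicate 2, 7 in artemisinin replicate 1 and 0 elsewhere. Tpm1, the further isoform with the highest CPM in artemisinin replicate 2, stood at 184 FPKM there and 54.1 to 88.8 FPKM elsewhere, and Pfkm, the muscle phosphofructokinase, at 55.1 FPKM there and 7.28 to 9.57 FPKM elsewhere.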

How the data were processed

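RNA-seq of 6 libraries, 3 per group, was analysed. The authors deposited raw counts for each gene and FPKM values, in which these counts are scaled by length and library size. Per the submitters' processing notes the build was GRCm38 (mm10), and the sources used here do not give aligner, counter or annotation. Per the labels' protocols, libraries were stranded and mRNA-selected, and the strand setting of the counting is not stated. Libraries held 25566173 to 34745497 counts, so that 3 counts equal 0.0863 to 0.117 CPM (the count scaled by the library total). The gene length implied by the FPKM was 0.516 to 3.49 times the longest GENCODE vM21 transcript over the members (Eno3 highest, Myl1 2.51), within 0.8 to 1.25 times for 36 of 42.

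The test was that of edgeR 4.0.16 under R 4.3.3 (filterByExpr, TMM, robust glmQLFit, glmQLFTest, Benjamini-Hochberg over all genes, threshold 0.05), for all 6 libraries and without artemisinin replicate 2. The SE is the log2 fold change divided by the root of F. Normalised CPM use the TMM-scaled library size. Alternatives were DESeq2 1.42.0, library totals, other filters, a replicate block, limma 3.58.1 on log2(FPKM + 0.1 or 1) where the mean FPKM reached 0.5 (this scale understates changes of low genes), and leaving out each library. In simulated counts with 100 genes changed at each size, edgeR recovered 24% of 2-fold and 83% of 4-fold changes over 15119 genes with 6 libraries, with 7.76% of its calls false, and 25% and 77% over 15263 genes with 5 libraries, with 12.8% false. DESeq2 recovered 46% and 92% with 6 libraries, with 25.8% of its calls false. With 5 libraries it recovered 45% and 88%, with 29.3% false, so its share of false calls was the larger in this simulation. The simulated counts used the spread of each gene as edgeR estimated it, so the share of false calls in the real data was not measured.

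Some genes of the lists are not reported here by name. The members and lists were chosen with earlier results of these data known. Values in every library are given for the 3 members of each role with the highest FPKM in artemisinin replicate 2, the isoform pairs and the 8 smallest p without it. From each other list the gene with the highest CPM in that library and the genes called are named; Myot and the named myogenic and synaptic genes other than Mef2a and Chrnb1 were chosen after their values were seen. Coordinates and promoters (the first listed per gene) are from RefSeq on GRCm38.p6, with all 42 genes matched by Entrez number. Of the cell type lists, Schwann cells, cartilage, tendon, thyroid, thymus, alveolar type 2 and airway secretory markers had 1, 1, 0, 0, 0, 0 and 3 genes higher and 0, 0, 0, 0, 0, 9 and 0 lower without artemisinin replicate 2, and fat cell and squamous markers 5 and 0 higher and 0 lower. Of all genes tested in that fit, 4.34% were higher and 4.62% lower. For the lists with 0 calls, tendon, thyroid, thymus and squamous, edgeR gave 1, 0, 1 and 3 genes at an unadjusted p under 0.05 and DESeq2 1, 0, 0 and 1.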

Additional observations from a re-analysis of the deposited data

How the results depend on the processing

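With all 6 libraries edgeR called 682 genes, DESeq2 2286 and the replicate block 128, and 17 to 1383 were called with 1 library left out. Members called higher were 7 in that fit, 16 with DESeq2, 3 with no filter, 4 with the stricter filter, 2 with limma at a pseudocount of 1, 0 with the replicate block (20 at an unadjusted p under 0.05), and 0 to 14 with 1 library left out (15 to 33 unadjusted). Without artemisinin replicate 2 edgeR called 1383 genes and DESeq2 3210, with 122 to 4857 when a further library was left out. Members called higher were then 13, 21 with DESeq2, 9 with the block, 5 with limma at a pseudocount of 1 and 0 to 19 with a further library left out, where a lone artemisinin library is assumed to vary like the model group. Each left-out fit also has fewer mice. Same-numbered libraries deviated from their group means with correlations of 0.00, −0.10 and 0.03, so the numbers were not taken as pairs. Scaling by library totals moved the split of higher and lower genes from 331 and 351 to 464 and 319, and from 670 and 713 to 957 and 540 without artemisinin replicate 2, with the median log2 fold change going from 0.04 to 0.15 and from 0.02 to 0.16. It reversed no member. Reversals came only from leaving out a library: with all 6 libraries, leaving out each in turn gave log2 fold changes of −0.28 to 8.40 for Mylpf, −0.26 to 3.37 for Mybpc2 and −0.70 to 2.04 for Cacna1s, the lowest without artemisinin replicate 2. From the fit without it, leaving out a further library gave −1.10 to 0.21 for Mylpf (0.21 without artemisinin replicate 1 and 0.09 without model replicate 3), −1.63 to 0.41 for Mybpc2 (0.41 without artemisinin replicate 3) and −0.067 to 1.41 for Klhl41 (−0.067 without artemisinin replicate 1). None of these reversed values passed the threshold, and the cause was not tested. The count of members at least 20-fold higher in artemisinin replicate 2 was 22, and 25 against the mean of the others, and 6 of 9 fast genes led by FPKM against 7 by counts or by GENCODE lengths, an alternative chosen after seeing the data. For members with at most 3 counts per library outside artemisinin replicate 2, of which there were 6, differences among the other 5 libraries were not detectable at this depth.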
